A study of Homo sapiens with 14 samples.

Results

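In T47D cells, 111515 regions were called for the progesterone receptor (PR) under progesterone (P4). The report covers 4084 of them that were also called for PR under vehicle and for POLR3A under both treatments. These lay more than 5 kb from the start and end of every protein-coding gene. They are called distal shared regions here. They were chosen by the peak calls themselves: a region of the PR P4 list on chromosomes 1 to 22 or X had to overlap, by at least 1 bp, a region of each of the other 3 lists. Of all PR P4 regions, 5.58% met the overlap rule (6218 regions), and of the 80046 PR P4 regions over 5 kb from coding gene ends 5.1% did. The other 2134 shared regions, those within 5 kb of a coding gene end, serve as the comparison, so that distal regions were 65.7% of all shared regions (95% Wilson interval 64.5 to 66.9). Over whole lists, 72.8% of PR vehicle, 71.8% of PR P4, 61.1% of POLR3A vehicle and 65.6% of POLR3A P4 regions lay that far. The share among shared regions was thus not above that of the PR lists. Overlap with the lists is therefore a property of the selection and not a finding.

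T47D is an oestrogen and progesterone receptor positive line established from a breast cancer, and the cells had 1 h of either ethanol, the vehicle, or P4. Chromatin immunoprecipitation and sequencing (ChIP-seq) was done with an antibody to PR and with one to POLR3A, with 3 replicate libraries for each of the 4 combinations and 1 pooled input library per treatment, 14 in all. The values used come as 1 peak list per combination, with 38933 regions for PR under vehicle, 111515 for PR under P4, 29161 for POLR3A under vehicle and 47904 for POLR3A under P4. No value has a replicate check, library depth is unknown, and the intervals printed cover counting over regions only. Each region carries a fold enrichment and a −log10 q-value from the authors' peak calling, which rank it within its own list and say nothing of a change from one list to another.

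PR is a nuclear receptor that, once it has bound progesterone, attaches as a dimer to inverted-repeat response elements, many of them in enhancers far from genes, where FOXA1 and other luminal factors often sit too. RNA polymerase III makes short noncoding RNAs such as transfer RNAs, 5S ribosomal RNA, U6 and 7SL RNA, and POLR3A is the largest subunit of that enzyme. Human chromosomes also hold long stretches with few or no annotated genes, among them the repeat-rich DNA in and around centromeres, and families of near-identical gene copies in which a sequencing read cannot be placed with confidence.

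Some distal shared regions sat on annotated start sites that the 5-kb rule allowed, because it measured only from the outer ends of coding genes. The start windows used run from 250 bases before to 50 bases after a start, come from RefSeq (GRCh38.p14) and were matched by position. Of the 34961 windows on these chromosomes, 145 windows of 122 genes overlapped 122 distal shared regions, and in 48 regions the PR P4 summit itself fell inside a window. Those summits lay in 51 windows, of 33 long noncoding RNA (lncRNA) genes and 15 coding genes with an internal start. The 8 windows below hold such a summit and are shown because they give the letters under the summits. They were chosen after their values were seen. The first 2 windows had the highest PR P4 values of the 51, and the others also hold a motif described next. Each is written 5′ to 3′ on the gene's strand, and capitals mark matches, on either strand, to any of 4 motifs. The core of the progesterone response element was searched as ACANNNTGT. The forkhead motif was spelled TGTTTAC in the search. For zinc finger factors of the GATA family the letters were AGATAA. The motif of AP-1 factors was written as TGANTCA. No matches overlap one another in these windows.
FAM107B: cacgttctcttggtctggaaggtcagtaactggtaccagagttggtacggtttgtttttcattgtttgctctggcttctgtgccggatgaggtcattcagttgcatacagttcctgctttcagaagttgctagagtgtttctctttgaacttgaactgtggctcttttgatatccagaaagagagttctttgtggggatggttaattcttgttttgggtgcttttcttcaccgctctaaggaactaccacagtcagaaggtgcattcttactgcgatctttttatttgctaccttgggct
LINC00886: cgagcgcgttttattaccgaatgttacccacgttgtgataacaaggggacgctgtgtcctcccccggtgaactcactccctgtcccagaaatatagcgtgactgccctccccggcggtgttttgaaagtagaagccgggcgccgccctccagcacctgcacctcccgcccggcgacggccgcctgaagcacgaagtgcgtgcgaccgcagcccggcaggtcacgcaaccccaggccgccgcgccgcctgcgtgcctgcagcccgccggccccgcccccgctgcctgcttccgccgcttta
NET1: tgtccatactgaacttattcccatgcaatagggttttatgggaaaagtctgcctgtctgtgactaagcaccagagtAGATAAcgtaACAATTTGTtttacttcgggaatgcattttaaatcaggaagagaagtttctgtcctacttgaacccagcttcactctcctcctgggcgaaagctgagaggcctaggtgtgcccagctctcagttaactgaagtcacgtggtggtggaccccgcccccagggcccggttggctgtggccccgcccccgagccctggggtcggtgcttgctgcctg
LOC124904656: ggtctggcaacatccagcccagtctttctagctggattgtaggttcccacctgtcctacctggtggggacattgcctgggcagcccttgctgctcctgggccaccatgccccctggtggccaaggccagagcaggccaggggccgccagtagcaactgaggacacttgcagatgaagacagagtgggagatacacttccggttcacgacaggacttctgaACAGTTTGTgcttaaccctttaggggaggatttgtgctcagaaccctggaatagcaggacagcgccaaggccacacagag
LOC105375170: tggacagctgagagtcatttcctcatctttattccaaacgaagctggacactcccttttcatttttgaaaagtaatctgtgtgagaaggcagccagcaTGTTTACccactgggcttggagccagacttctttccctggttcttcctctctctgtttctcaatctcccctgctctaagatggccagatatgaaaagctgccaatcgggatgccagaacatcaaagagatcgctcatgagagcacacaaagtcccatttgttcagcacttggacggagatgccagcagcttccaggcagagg
RCAN1: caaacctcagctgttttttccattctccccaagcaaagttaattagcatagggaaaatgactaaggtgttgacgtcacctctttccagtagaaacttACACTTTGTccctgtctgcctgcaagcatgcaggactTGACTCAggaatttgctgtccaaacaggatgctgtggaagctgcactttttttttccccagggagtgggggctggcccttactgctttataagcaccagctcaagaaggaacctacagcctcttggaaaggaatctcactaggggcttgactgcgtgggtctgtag
LOC124904504: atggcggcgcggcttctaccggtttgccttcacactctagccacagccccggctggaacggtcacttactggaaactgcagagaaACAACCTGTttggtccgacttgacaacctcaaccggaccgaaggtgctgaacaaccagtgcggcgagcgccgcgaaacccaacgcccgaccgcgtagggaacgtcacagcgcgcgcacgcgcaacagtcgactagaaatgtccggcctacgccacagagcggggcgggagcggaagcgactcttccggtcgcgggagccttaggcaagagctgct
MANCR: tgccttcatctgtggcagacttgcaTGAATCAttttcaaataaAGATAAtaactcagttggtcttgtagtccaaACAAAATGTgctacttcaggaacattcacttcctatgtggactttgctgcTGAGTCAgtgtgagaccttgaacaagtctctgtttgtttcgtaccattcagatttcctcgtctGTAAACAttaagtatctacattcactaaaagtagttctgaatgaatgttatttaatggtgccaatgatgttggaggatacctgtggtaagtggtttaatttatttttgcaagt

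The FAM107B window (chr10:14571950-14572249, minus strand) had the PR P4 summit at base 34 and PR −log10 q values of 358 (vehicle) and 399 (P4), against 6.61 and 17.2 for POLR3A. LINC00886 (chr3:156817013-156817312, minus strand) had its PR P4 summit at base 44 and values of 304 and 396 for PR and 4.23 and 5.49 for POLR3A, and all 4 summits lay in the window. NET1 codes for an exchange factor of the GTPase RhoA, and its window (chr10:5446301-5446600, plus strand) had PR values of 111 and 256 and POLR3A values of 4.68 and 6.15. RCAN1, an inhibitor of calcineurin (chr21:34526773-34527072, minus strand), had PR values of 57.0 and 220.0 and POLR3A values of 3.53 and 6.34, with the PR P4 summit at base 123 between a response element core at base 98 and an AP-1 match at base 135. MANCR, a lncRNA gene (chr10:4678021-4678320, minus strand), had PR values of 149 and 126, POLR3A values of 3.56 and 3.01, and matches to all 4 motifs. The PR P4 summit there was at base 105, between a response element core at base 75 and an AP-1 match at base 125. All these values are those of the whole called regions that meet a window, not of the window alone. At NET1 and MANCR neither POLR3A summit lay in the window, and at FAM107B the POLR3A vehicle summit did not. At RCAN1 all 4 summits did. At these 5 windows the PR values were all above 50 and the POLR3A values all under 20, on the scores of separate lists. The other 3 windows belong to lncRNA genes. LOC124904656 (chr19:19366845-19367144, minus strand), LOC105375170 (chr7:16989968-16990267, plus strand) and LOC124904504 (chr1:211382695-211382994, minus strand) had PR P4 values of 229.8, 228 and 203.

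Over the 51 windows with a PR P4 summit, the response element core was found in 8, or 15.7% (95% exact interval 7.02 to 28.6), against 5.36% of all 34961 start windows of the same length. An AP-1 match was in 10 of the 51, or 19.6% (9.82 to 33.1), against 7.68% of all windows. The forkhead motif was in 4, or 7.84% (2.18 to 18.9), against 3.42%, and the GATA motif in 5, or 9.80% (3.26 to 21.4), against 10.3%. The core of the B box, an internal promoter element of tRNA genes (GTTCGANTC), was in none of the 51 and in 0.255% of all windows. Some of the 51 windows overlap one another and are not independent: they belong to 48 regions, of which 7 (14.6%, 6.07 to 27.8) had the response element core in a window, 10 an AP-1 match, 4 the forkhead motif and 4 the GATA motif. A match is a string of letters and was not read as a bound site. All start windows were used for comparison, whether or not PR was called there. Windows with the summit of a PR P4 region outside the distal shared regions were not compared. The shares therefore do not tell distal shared regions from other PR regions at start sites. Over all 145 windows that a region overlapped, the response element core was in 11 (7.59%) and the AP-1 motif in 16 (11.0%). The 51 windows are part of the 145, and their 8 and 10 matches are part of these counts.

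Distal shared regions were placed differently along the genome from the PR P4 list they came from. Far fewer lay in protein-coding genes and many more in stretches without any annotated gene. Of the 4084 regions, 1081 (26.5%, interval 25.1 to 27.8) lay inside the span of a coding gene, against 50.4% of all PR P4 regions over 5 kb from coding gene ends. A further 652 regions (16.0%) lay in a gene of another type, against 13.8%, and 1021 (25.0%) lay between genes with one within 100 kb, against 29.4%. The remaining 1330 regions (32.6%, interval 31.1 to 34.0) had no annotated gene of any type within 100 kb, against 6.42% of the same background. That background counts regions without a call in the other lists as well, and the selection required those calls. Its coding-span share was the highest of the 4 lists. Among regions that far from coding gene ends, the share was 43.9% for PR under vehicle and lowest, 39.7%, for POLR3A under vehicle. The 26.5% of distal shared regions stood below every list. The gene-free share was taken for the PR P4 list alone. The gene table gives spans without exons, so exonic and intronic positions cannot be told apart.

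Seen from the other side, 25.9% of the 5137 gene-free PR P4 regions were in all 4 lists (interval 24.7 to 27.1). The share was 2.68% of those in coding gene spans, 5.91% of those in other genes and 4.34% of those between genes with a gene within 100 kb. The excess of gene-free positions did not hang on the 100-kb limit. With a limit of 10 kb they were 43.8% of distal shared regions and 21.4% of the background, and with 500 kb 25.4% and 4.77%. At a −log10 q of at least 5 in every list, 54.2% of distal shared regions were gene-free and 11.4% lay in coding gene spans, and with reciprocal overlap of at least 50% the shares were 58.7% and 10.9%. The background share was not recomputed at these 2 settings. No annotation of repeats, satellites, centromeres or blacklisted regions was used here, and whether such regions were filtered is not given in the sources used here.

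**Figure D1:**
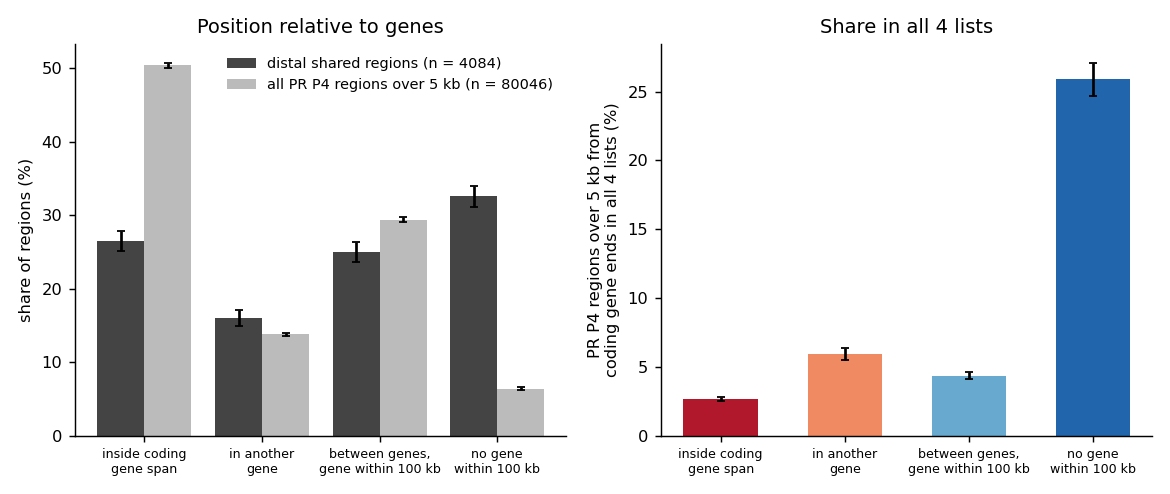
Left, share of distal shared regions (dark, n = 4084) and of all PR P4 regions over 5 kb from coding gene ends (light, n = 80046) in each of 4 positions relative to annotated genes, in percent; right, the percentage of those PR P4 regions in each position that were in all 4 lists. Bars start at 0 and error bars are 95% Wilson intervals; the gene-free bar reaches 32.6% against 6.42% on the left and 25.9% on the right.

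The regions were also bunched. When regions were joined across gaps up to a limit between 12 and 13 kb, the 4084 regions formed 2255 loci, of which 1641 held a single region and 36 held 10 or more, 739 regions in all. The locus with the most regions held 65 and spanned chr9:60552890-60687396. The next were chr1:124631390-124784253 with 47 regions and chr21:8386795-8471978 with 43. In bins of 1 Mb, 36 bins with 20 or more regions each held 1615 of them (39.5%), and 21 of these bins, with 1060 regions, were mostly gene-free. These bins were picked for holding many distal shared regions, and they held 5066 of the 80046 PR P4 regions over 5 kb from coding gene ends (6.33%). The fullest bin, from 124 to 125 Mb on chromosome 1, held 134 regions, all gene-free, among 219 PR P4 regions over 5 kb from coding gene ends. By chromosome, chromosome 1 held the most regions (555) and chromosome 11 followed with 397, and as a share of PR P4 regions over 5 kb from coding gene ends chromosomes 21 and 13 stood highest (11.1% each) and chromosome 2 lowest (2.14%).

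Not all dense places were gene-free. The chr21 locus overlaps annotated copies of the 45S ribosomal RNA unit, which RNA polymerase I transcribes. It extends beyond them, and part of its 43 regions lay outside them. All 12 annotated genes of 45S units on the chromosomes used, in this locus and outside it, touched distal shared regions. These were 26 of the 30 PR P4 regions there that lie over 5 kb from coding gene ends. Their PR −log10 q had a median of 14.2 under vehicle (range 5.64 to 37.0) and 17.6 under P4 (5.93 to 42.0), and for POLR3A the medians were 23.2 (8.91 to 36.0) and 11.2 (3.17 to 31.4). GSE1, which codes for a coiled-coil protein, was the coding gene with the most regions: 62 of the 244 PR P4 regions in its span that lie over 5 kb from coding gene ends. In GSE1 the PR medians were 6.43 and 12.1 and the POLR3A medians 5.72 and 7.03, while its strongest region reached 363 for PR under P4. KCNMA1, the pore-forming subunit of a calcium-activated potassium channel, held 15 of 161, with PR medians of 25.5 and 124 and POLR3A medians of 4.43 and 4.94. NBPF19 and NBPF10, members of a family of highly similar copies on chromosome 1, held 14 of 57 and 10 of 44. In all, 634 coding genes held a region in their span, and 439 of them held 1.

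The strength of the regions was then described within each list. Over all 4084, the median −log10 q was 11.0 for PR under vehicle, 15.3 for PR under P4, 6.67 for POLR3A under vehicle and 7.00 for POLR3A under P4. These medians stand at percentiles 70.3, 79.8, 83.4 and 90.2 of the 4 lists. Shared regions within 5 kb of a coding gene end stood at 44.4, 72.0, 66.4 and 76.0, lower in all 4. The median fold enrichments had the other order, 3.57, 4.44, 3.76 and 3.62 near gene ends against 3.52, 3.81, 3.54 and 3.46 in distal shared regions. Since overlap with the lists chose the regions, no test was made. Rank also hung on the score: by fold enrichment the distal medians stood at percentiles 41.8, 58.7, 52.5 and 62.6, so that for PR under vehicle the median fell below the middle of the list.

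Median strength differed with position, and not alike in the 4 lists. In coding gene spans the median −log10 q was 9.42 for PR under vehicle and 28.0 under P4, but 4.31 and 4.95 for POLR3A. In gene-free stretches the PR medians were 14.6 and 14.7 and the POLR3A medians 11.6 and 13.7. Regions in other genes had PR medians of 7.60 and 13.3 and POLR3A medians of 6.38 and 6.09, and those between genes 9.39 and 13.8, and 6.35 and 6.10. Gene-free regions were narrower than shared regions elsewhere, with a median width of 286 bp. The median was 847 bp in coding gene spans and 724 bp for shared regions near gene ends. Over the whole PR P4 list it was 288 bp, close to that of gene-free regions. The fold enrichments of gene-free regions were low for their q-values. The median fold for PR under P4 was 3.04 in gene-free stretches and 7.34 in coding gene spans, and for POLR3A under P4 it was 3.17 and 3.64, although the gene-free POLR3A median −log10 q was the higher one.

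**Figure D2:**
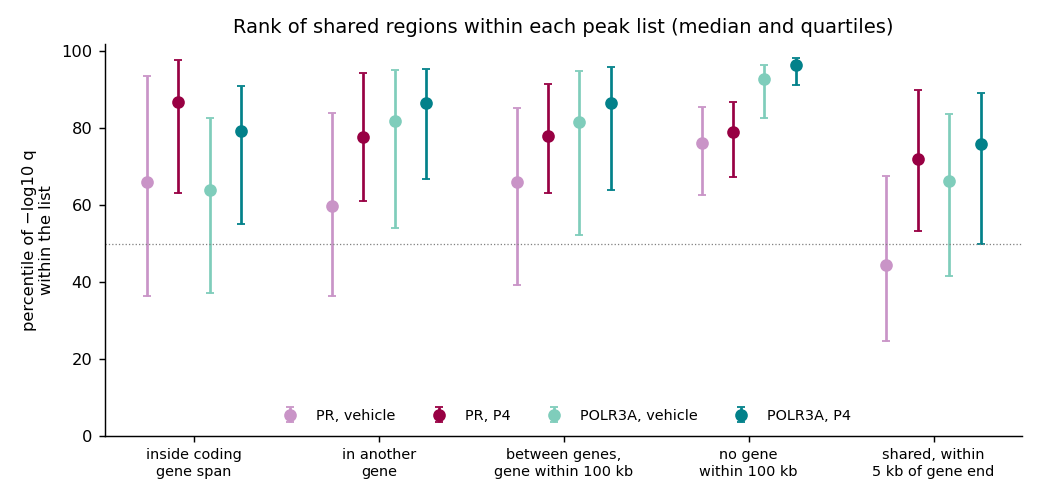
Percentile of −log10 q within each of the 4 peak lists (vertical axis, 0 to 100) for distal shared regions by position and, at the right, for the 2134 shared regions within 5 kb of a coding gene end. Points are medians and bars run from the lower to the upper quartile; by position, the medians of PR under vehicle and of both POLR3A lists stand highest in gene-free stretches, and the PR P4 median stands highest in coding gene spans.

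Within gene-free stretches the lists ranked the regions alike. Across the 1330 gene-free regions, Spearman's rank correlation of −log10 q between PR and POLR3A was 0.82 under vehicle and 0.86 under P4. Across the 1081 regions in coding gene spans it was 0.08 and 0.22, across the 652 in other genes 0.06 and 0.12, and across the 1021 between genes 0.16 and 0.13. For shared regions near gene ends it was 0.06 and 0.08 (n = 2134). These are descriptions across regions of the same 4 lists, which share cells, treatments and reference sequence, and neighbouring regions are not independent. The gene-free value was 0.83 across the 268 gene-free regions outside the 36 dense bins. In regions of at most 400 bp the P4 value was 0.88 over 977 gene-free regions, 0.29 over 161 regions in coding gene spans, 0.33 over 134 in other genes and 0.62 over 303 between genes.

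**Figure D3:**
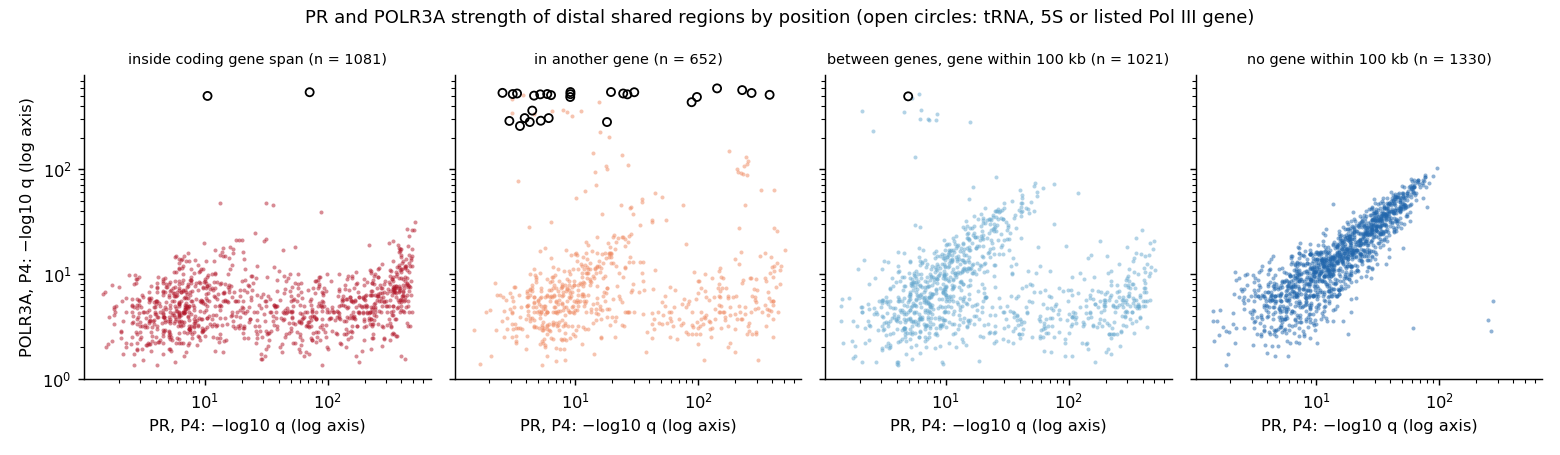
Each point is 1 distal shared region, with its −log10 q for PR under P4 (horizontal, log axis) and for POLR3A under P4 (vertical, log axis), in 4 panels by position; open circles mark the 31 regions at a tRNA, 5S or other listed RNA polymerase III gene. Gene-free regions lie along a diagonal (Spearman 0.86, n = 1330) and the open circles lie at the top.

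Summits, the positions of highest signal in a region, were closest together where genes were absent. In gene-free stretches the PR and POLR3A summits were a median of 18 bp apart under vehicle and 16 bp under P4. They were 133 and 136 bp apart in coding gene spans, 109 and 110 bp in other genes, 78 and 71 bp between genes, and 191 and 169.5 bp in shared regions near gene ends. All 4 summits fell within 50 bp of one another in 866 of the 1330 gene-free regions (65.1%), against 8.51% in coding gene spans, 12.6% in other genes, 20.8% between genes and 3.56% near gene ends. Among regions of at most 400 bp the P4 medians were 14 bp in gene-free stretches, 57 bp in coding gene spans, 48 bp in other genes, 28 bp between genes and 89 bp near gene ends. Between treatments of the same antibody, PR summits in coding gene spans were a median of 34 bp apart and POLR3A summits 140 bp, while in gene-free stretches both were 16 bp apart. Without the gene-free regions the median distance between PR P4 and POLR3A P4 summits over the other distal shared regions was 103.5 bp, against 47 bp over all of them.

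**Figure D4:**
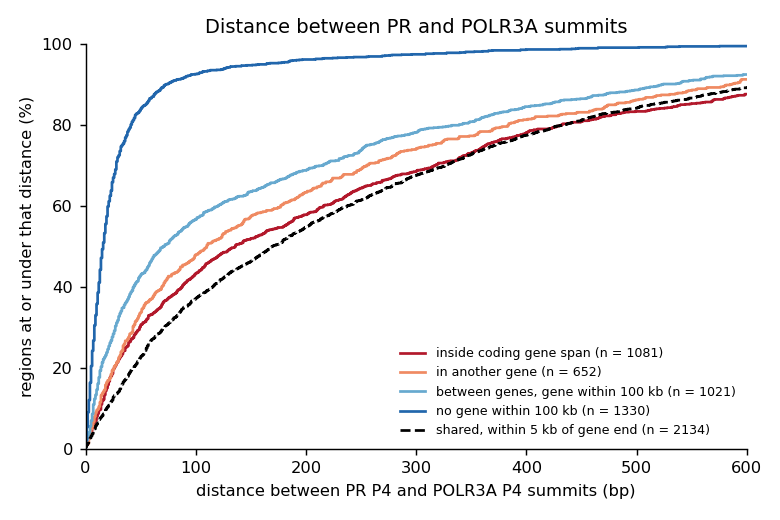
Cumulative percentage of regions (vertical, 0 to 100) whose PR P4 and POLR3A P4 summits lie at or under a given distance (horizontal, bp), for distal shared regions by position and for shared regions within 5 kb of a coding gene end (dashed). The gene-free curve rises first, with a median of 16 bp, and the curves for coding gene spans (136 bp) and near gene ends (169.5 bp) rise last.

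Ordered by PR P4 −log10 q and split into 5 groups of nearly equal size, the regions did not gain POLR3A score steadily. From the weakest to the strongest group, the median POLR3A value was 4.97, 6.34, 11.3, 19.3 and 4.41 under vehicle and 4.70, 6.73, 11.9, 24.1 and 5.53 under P4. The make-up of the groups changed with it: gene-free regions numbered 220, 285, 384, 424 and 17, and regions in coding gene spans 229, 175, 109, 152 and 416. The strongest group, with PR P4 values from 69.1 to 517 held few gene-free regions and had POLR3A values about as low as the weakest group.

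**Figure D5:**
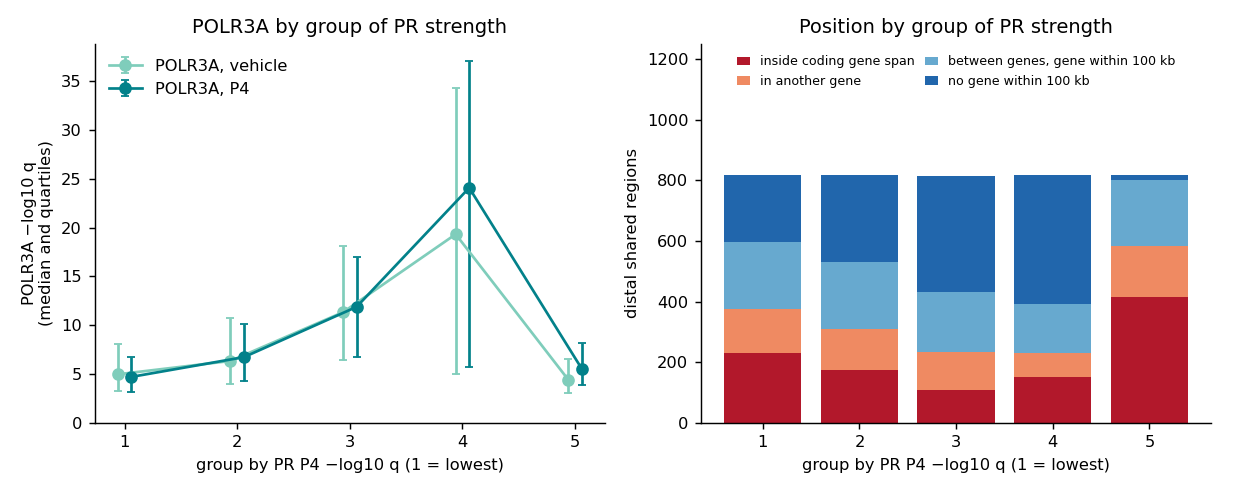
Distal shared regions in 5 groups of nearly equal size by PR P4 −log10 q (horizontal, 1 the lowest); left, POLR3A −log10 q under vehicle and P4 (points are medians, bars run between quartiles), right, the number of regions in each position. The POLR3A medians peak in group 4 (19.3 and 24.1) and drop in the strongest (4.41 and 5.53), where 17 regions are gene-free.

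The strongest PR regions and the strongest POLR3A regions were described apart. Regions at or above the 99th percentile of both PR lists numbered 190 of the 4084, of which 108 lay in coding gene spans and 1 was gene-free. Their median −log10 q was 312 and 406 for PR and 5.68 and 7.50 for POLR3A. Regions at or above the 99th percentile of both POLR3A lists numbered 84, with medians of 352 and 299 for POLR3A and 5.86 and 14.7 for PR. Sets this small would share few of the 4084 regions even if the scores were unrelated. The overlap given next therefore shows no separation. A single region met both criteria, chr11:59560388-59561732 at the lysine tRNA gene TRK-TTT3-4. It had values of 302 and 382 for PR and 540.5 and 512 for POLR3A, and its PR P4 and POLR3A P4 summits were 745 bp apart. By the lowest of its 4 percentiles, the next region after it was chr5:173766026-173767222, in the noncoding gene LOC124901138 and 121126 bp from CPEB4, with 214 and 327 for PR and 47.1 and 63.4 for POLR3A. Away from any polymerase III gene, chr3:194323696-194325336, near CPN2, had 227 and 301 for PR and 25.2 and 18.0 for POLR3A.

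Among the regions with the highest PR values, one inside DERA (chr12:15936676-15937276), an aldolase gene, had PR −log10 q values of 507 (vehicle) and 517 (P4), with 14.0 and 31.4 for POLR3A. Another lay in the noncoding gene LOC100507336 (chr6:3669734-3670318), with 541 and 514 for PR and 24.6 and 16.8 for POLR3A. In ZBTB16, which codes for a zinc finger repressor and is a known PR target, the region chr11:114178441-114181138 had 534 and 508 for PR and 24.2 and 26.4 for POLR3A. Its PR P4 and POLR3A P4 summits were 14 bp apart. A region 6639 bp from MRFAP1 (chr4:6632993-6634045) had the highest PR vehicle value of all, 549, with 439 under P4 and 19.0 and 25.5 for POLR3A. The region chr9:110188821-110189555, near C9orf152, had 527 and 499 for PR and 19.3 and 20.9 for POLR3A, and chr22:40732395-40733628, near SLC25A17, had 475 and 508, and 15.5 and 10.9. In these 6 regions the PR scores were near the top of their lists and the POLR3A scores stood at percentile 94.3 or above.

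RNA polymerase III genes marked the strongest POLR3A calls. Within 100 bp of a tRNA, 5S or other listed polymerase III gene lay 31 distal shared regions, 0.759% (interval 0.535 to 1.08), against 0.0887% of all PR P4 regions over 5 kb from coding gene ends. That background counts regions with no POLR3A call as well, and the selection required POLR3A. Of the 52 PR P4 regions at tRNA genes over 5 kb from coding gene ends, 21 were shared, at 26 genes. These 21 had a median −log10 q of 544 for POLR3A under vehicle (range 259 to 609) and 519 under P4 (258 to 568). For PR their medians were 4.24 (2.42 to 302) and 9.15 (2.56 to 382). All 31 polymerase III regions stood above the 99th percentile of both POLR3A lists, while their PR vehicle scores ran from percentile 10.8 to 99.6. At a −log10 q of at least 5 in every list the count was 12 of 1761 distal shared regions, and with reciprocal overlap of at least 50% it was 5 of 1859.

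At the tRNA genes, the highest POLR3A vehicle value was 609 at the glutamate tRNA gene TRE-TTC2-2 (region chr15:26081555-26082295), with 534 under P4 and 4.24 and 2.56 for PR. The phenylalanine tRNA gene TRF-GAA1-4 (chr12:124927704-124929127) had 595 and 568 for POLR3A and 134 and 229 for PR. Its neighbour at TRA-TGC4-1 and TRD-GTC2-10 (chr12:124939100-124941549) had 565 and 533 for POLR3A and 115 and 273 for PR. Here both antibodies scored high, but the PR P4 summit was 555 bp from the POLR3A P4 summit at TRF-GAA1-4 and 194 bp away at the second region. The glutamine tRNA gene TRQ-TTG1-1 (chr17:49191730-49193436) had 589 and 542 for POLR3A and 4.91 and 30.3 for PR, and TRE-TTC2-1 (chr13:44917720-44919042) had 580.4 and 544 for POLR3A and 5.64 and 19.6 for PR. At TRM-CAT1-1, a methionine tRNA gene inside TBC1D31 (chr8:123156898-123158018), POLR3A had 544 and 542 and PR 6.13 and 71.5. On chromosome 11, TRP-AGG2-4 and TRP-TGG2-1 share 1 region (chr11:76235278-76236316), with 516 and 544 for POLR3A and 2.85 and 9.15 for PR. The region chr1:146038653-146039185, one of the 5 highest for POLR3A under vehicle (567), lay 215 bp from the nearest such gene and so outside the count of 31. In 2 places on chromosome 1, at TRG-TCC2-1 and TRH-GTG1-1 and at TRK-TTT3-1 and TRK-TTT3-2, a pair of PR regions met the same POLR3A region, so their POLR3A values are 1 measurement each. The region at TRK-CTT2-1 likewise shares its POLR3A vehicle region with chr1:146038653-146039185.

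Across the 31 regions the POLR3A summits of both treatments were a median of 10 bp apart, whereas PR and POLR3A summits were 210 bp apart under vehicle and 216 bp under P4. That spacing is wider than in any of the 4 positions.

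Of the other polymerase III genes, VTRNA1-2, a vault RNA gene (chr5:140718283-140719320), had the highest POLR3A P4 value of all distal shared regions, 589, with 546 under vehicle and 22.3 and 143 for PR. RN7SL2, which makes the RNA of the signal recognition particle (chr14:49862538-49863453), had 406 and 435 for POLR3A and 31.4 and 88.7 for PR, and RN7SL1 (chr14:49585840-49586915) had 469 and 499, and 9.06 and 10.5. RNU6-8, a U6 gene (chr14:32202599-32203305), had 529 and 503 for POLR3A and 2.43 and 4.63 for PR, and RNY3, a Y RNA gene (chr7:148983327-148984108), had 524 and 527, and 5.64 and 24.6. The 5 regions at 5S ribosomal RNA genes, all in the chromosome 1 array, had POLR3A values from 286 to 334 under vehicle and 282 to 307 under P4, and PR values from 3.38 to 7.33 and 2.91 to 6.08. The 5S genes are near-identical copies, so the values of single copies are uncertain.

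Further families of small RNA genes, looked up after the strongest POLR3A regions had been seen, held part of the rest. The SNAR genes make small noncoding RNAs from copies clustered mostly on chromosome 19, and 10 of 28 had a distal shared region. Of the 14 PR P4 regions at SNAR genes over 5 kb from coding gene ends, 11 were shared, against 5.1% of all PR P4 regions that far. That background counts regions with no POLR3A call as well. The families were looked up from POLR3A values, so a high shared part in any of them follows from the choice and is not a finding. These 11 had median POLR3A values of 390 under vehicle (18.5 to 435) and 339 under P4 (16.6 to 364), and PR medians of 2.91 (1.55 to 8.40) and 7.35 (3.05 to 11.2). At the U1 small nuclear RNA genes, which RNA polymerase II transcribes, 10 of 21 genes had 10 regions, of 13 PR P4 regions that far. Their POLR3A medians were 101 (28.2 to 153) and 82.6 (31.6 to 136) and their PR medians 5.82 (4.00 to 15.2) and 15.6 (6.36 to 27.1). On chromosome 17, all 12 small nuclear RNA gene copies beside RNU2-1, which makes U2 RNA, met distal shared regions, 12 of 12 PR P4 regions that far. In these, PR had medians of 73.3 (22 to 115) and 233 (75.3 to 253) and POLR3A had 147 (82.0 to 166) and 97.1 (45.6 to 148). This family differed from the others in having high scores for both antibodies, and as an array of near-identical copies its single values are uncertain. Of the 84 regions at the top of both POLR3A lists, 58 were at a gene of the families named here and 69 within 1 kb of one. Of the other 15, 7 were gene-free, among them chr18:20561555-20562532, with 85.2 and 102 for POLR3A and 59.6 and 95.8 for PR.

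Listed PR target genes were not set apart by these regions. Within 50 kb of a target lay 29 distal shared regions, 0.710% (interval 0.495 to 1.02), against 0.645% of the background, and 11 of 30 targets had one. ZBTB16 had 4. FKBP5, a cochaperone of steroid receptors, had 1 region (chr6:35722311-35723014) among 36 PR P4 regions over 5 kb from coding gene ends, with 390 and 400 for PR and 5.53 and 1.67 for POLR3A. GREB1, a hormone-induced growth regulator, had 3 of 51, the strongest (chr2:11539096-11540161) with 393 and 392 for PR and 8.05 and 7.37 for POLR3A. PRLR, the prolactin receptor gene, had 5 of 74, the strongest (chr5:35171920-35172846) with 227 and 321 for PR and 5.38 and 6.89 for POLR3A. BCL2L1, which encodes an inhibitor of apoptosis, had 5 of 45, the strongest (chr20:31679508-31681571) with 150 and 288, and 7.87 and 5.49. EDN1, the endothelin-1 gene, had 5 of 30, and its strongest region (chr6:12323862-12324672) had 165 and 341 for PR and 2.31 and 2.75 for POLR3A. S100P had 2 of 18, HSD11B2 1 of 15, CEBPB 1 of 21, NFKBIA 1 of 19 and SNAI1 1 of 18. The region near HSD11B2 lay inside another coding gene, ZDHHC1. At NFKBIA and S100P the strongest PR P4 values were 131 and 128, with POLR3A P4 values of 3.45 and 2.51. HSD11B2, SNAI1 and CEBPB had lower PR P4 values of 13.3, 9.06 and 5.42, with POLR3A P4 values of 2.44, 2.07 and 3.55. The strongest regions at ZBTB16, FKBP5, GREB1, PRLR, BCL2L1 and EDN1 had PR P4 values from 288 to 508 and POLR3A P4 values from 1.67 to 26.4, and the FKBP5 region stood at percentile 3.88 of the POLR3A P4 list. With a −log10 q of at least 10 in every list, 1 region near targets was left by count, among 921 distal shared regions.

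Of 23 luminal transcription factor and coregulator genes, 5 had a distal shared region within 50 kb, 16 regions in all (0.392%, interval 0.241 to 0.635, against 0.478% of the background). GRHL2, an epithelial transcription factor, had 9 among 89 PR P4 regions over 5 kb from coding gene ends, the strongest (chr8:101445308-101446186) with 279 and 328 for PR and 6.61 and 7.97 for POLR3A. SPDEF had 3 of 32, XBP1 2 of 15, TFAP2C 1 of 10 and ELF3 1 of 22. The strongest region near XBP1, a transcription factor of the unfolded protein response (chr22:28818032-28820258), had 148 and 293 for PR and 5.63 and 3.17 for POLR3A. ESR1, PGR, FOXA1 and GATA3 had none, with 25, 9, 7 and 15 PR P4 regions over 5 kb from coding gene ends within 50 kb.

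An end of a lncRNA gene lay within 1 kb of 245 distal shared regions, 6.00% (interval 5.31 to 6.77), against 4.95% of the background, and 185 of them were outside coding gene spans. At a −log10 q of at least 10 in every list, 16 were left by count, among 921 distal shared regions. The 5 with the highest PR P4 values were all inside coding genes as well. At ITGA9-AS1, in the integrin gene ITGA9 (chr3:37752891-37754145), PR had 392 and 490.1 and POLR3A 5.29 and 4.31. At LOC112268433, in the clock gene PER2 (chr2:238285450-238287473), the values were 293 and 451, and 4.19 and 3.17. Regions at LOC105375208 in JAZF1, LOC124901129 in WWC1 and LOC101927817 in ANKRD11 had PR P4 values of 433, 414 and 412, and POLR3A values from 2.13 to 8.89.

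Just inside the limit of 5 kb were regions 5001, 5004 and 5013 bp from a coding gene end, with PR P4 −log10 q of 3.55, 6.15 and 10.5 and POLR3A P4 values of 4.89, 3.82 and 5.50. Just outside were regions at 4997, 4993 and 4990 bp, with 5.93, 154 and 3.58 for PR and 5.63, 3.17 and 2.07 for POLR3A. Several called regions of another list met the same distal shared region in 332 cases for PR under vehicle, 332 for POLR3A under vehicle and 501 for POLR3A under P4, and the strongest was then used.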

How the data were processed

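PR and POLR3A peak lists from T47D cells after 1 h of vehicle or P4 were used, 1 per group. Per the submitters' processing notes, cutadapt, Bowtie2 and MACS2 were used with hg38; versions, the control and the pooling of replicates are not given in the sources used here. The deposited columns hold the authors' score, fold enrichment (a ratio over background), −log10 q, and the summit's offset.

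Positions were set against the RefSeq gene table of GRCh38.p14, in which 58419 of 59098 genes were kept and 679, listed after start positions fell back, were left out. Where several regions of a list overlapped a distal shared region, the one with the highest −log10 q gave its values. Percentiles are ranks over a whole list. Intervals are 95% Wilson intervals, or exact ones for motifs, and cover counting error only. No test was made, since the peak calls chose the regions and each group is a single list. Regions and gene lists were chosen with earlier results of these data known. Named regions are the 5 with the highest −log10 q in each list, the 5 with the highest lowest percentile, those at polymerase III genes, the strongest near listed genes, the 3 loci with the most regions, those at the 5-kb limit and the 5 strongest at lncRNA ends; families, dense bins, the top 1% and the windows printed were chosen after values were seen. Alternatives were other distances, overlaps, thresholds, ranks and list lengths. bedtools 2.31.1 gave the same 6218 shared and 4084 distal regions, and the code was tested on simulated data. Python 3.11.15, pandas 2.3.3, scipy 1.17.1 and statsmodels 0.14.6 were used.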

Additional observations from a re-analysis of the deposited data

Results flagged for a closer look

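The report covers chromosomes 1 to 22 and X. Outside them, PR P4 regions shared by all 4 lists were also present: 33 of 72 PR P4 regions on chromosome Y, or 45.8%, and 384 of 946 on sequences outside the assembled chromosomes, or 40.6%. Both shares stand above the 5.58% of chromosomes 1 to 22 and X, and are drawn to attention because none of the report's comparisons used those regions. Distances to genes were not taken there. Whether calls on chromosome Y mark binding on that chromosome was not tested.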

How the results depend on the processing

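Of 94 recomputed values, 17 stayed within 1.5 times the value given (counts) or within its 95% interval (shares, medians, correlation), and 77 moved. The number of distal shared regions was 2349 beyond 50 kb, 1859 with reciprocal overlap of at least 50%, 1761 at a −log10 q of at least 5, 921 at 10 or more and 2237 with all lists cut to 29161 regions. Their share of all shared regions was 72.0% beyond 2 kb, 58.5% beyond 10 kb, 85.9% and 96.0% at the 2 thresholds, 84.2% with reciprocal overlap and 74.3% at equal length. The same share over whole lists was not recomputed at these settings. The share in coding gene spans was 23.4% beyond 10 kb, 11.4% and 4.34% at the thresholds, 10.9% with reciprocal overlap and 25.0% at equal length; the gene-free share was 34.9% and 29.8% with limits of 50 and 200 kb, 54.2% and 66.4% at the thresholds, 58.7% with reciprocal overlap and 37.5% at equal length. Regions at polymerase III genes numbered 12 and 6 at the thresholds and 5 with reciprocal overlap. Those at lncRNA ends numbered 557 within 5 kb, 16 at a threshold of 10 and 50 with reciprocal overlap, those near targets 19 within gene spans and 1 at a threshold of 10, and loci 427 at that threshold.

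Median percentiles, in the order PR vehicle, PR P4, POLR3A vehicle and POLR3A P4, were 41.8, 58.7, 52.5 and 62.6 by fold, 80.4, 83.3, 94.8 and 96.9 at a threshold of 5, and 73.1, 78.2, 92.7 and 95.8 with reciprocal overlap; beyond 10 kb the POLR3A ones were 85.2 and 91.5. Summit distances, for PR between treatments, POLR3A between treatments, and PR to POLR3A under vehicle and P4, were 13, 12, 11 and 13 bp at a threshold of 10, and 19, 20, 22 and 20 bp with reciprocal overlap.

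Settings added after seeing the data gave these values. Without gene-free regions, 39.3% lay in coding gene spans, the percentiles that moved were 64.8 (PR vehicle), 73.8 and 83.6 (POLR3A), and the distances were 34, 105.5, 107 and 103.5 bp. Without the dense bins these were 37.3%, percentiles of 66.0, 81.4, 71.6 and 82.4, and distances of 29, 91, 92 and 89 bp. Regions of at most 400 bp had distances of 19, 19, 22 and 19 bp. The gene-free rank correlation was 0.84 at a threshold of 10, 0.88 with reciprocal overlap and 0.83 outside dense bins. The cause of these shifts was not tested beyond the smaller sets the settings themselves make.

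No paired analysis was possible because each group's replicates share 1 list, and leaving out a replicate could not be done for the same reason. The planned motif search around PR P4 summits was not run, as a genome sequence was not used here. Depth is unknown, and what it limits could not be measured.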
